A study of Homo sapiens with 18 samples.

Results

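9 genes of plasma membrane amino acid transport were examined in the steroid-producing human line NCI-H295R, which derives from an adrenocortical carcinoma. They were SLC3A2, SLC7A5, SLC7A8, SLC7A1, SLC1A4, SLC1A5, SLC38A1, SLC38A2 and SLC1A3, taken by symbol from a table of expected counts, 9 of its 58870 genes. All 9 had enough counts to be tested, as did 15787 genes in all. Total RNA depleted of ribosomal RNA was sequenced after 48 h with STA9090, known as ganetespib, which blocks the HSP90 chaperone, with PIK75 (a PI3K inhibitor), with BGT226 (which inhibits PI3K and mTOR), with STA9090+PIK75, with STA9090+BGT226, or without treatment, in 3 biological replicates per group and 18 libraries in all. The study's design text gives 20 nM, without saying how it applied to each agent of a combination, and names no solvent for the untreated group. All groups are the same line, so the data describe 1 tumour cell line and no other adrenal cells.

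Cells take up amino acids through carriers that differ in substrate and in driving force. SLC3A2 (4F2hc, the heavy chain of CD98) carries no substrate itself and brings light chains of the SLC7 family to the cell surface. Among these, SLC7A5 (LAT1) exchanges large neutral amino acids such as leucine for internal ones, and SLC7A8 (LAT2) is a related exchanger of neutral amino acids. SLC7A1 (CAT1) takes up arginine and lysine without the heavy chain. SLC1A4 (ASCT1) and SLC1A5 (ASCT2) are sodium-dependent exchangers of small neutral amino acids, of which ASCT2 also accepts glutamine. SLC38A1 (SNAT1) and SLC38A2 (SNAT2) drive net uptake of glutamine and alanine with sodium, and SLC1A3 (EAAT1) takes up glutamate and aspartate. Leucine and arginine that enter this way are sensed by mTORC1, a growth-promoting kinase complex downstream of PI3K, and several of these genes are known targets of ATF4, a factor whose translation increases when amino acids run short, or of MYC.

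The genes are SLC3A2 (ENSG00000168003.16, chromosome 11, 62856102 to 62888875, plus strand), SLC7A5 (ENSG00000103257.9, chromosome 16, 87830023 to 87869488, minus strand), SLC7A8 (ENSG00000092068.20, chromosome 14, 23125295 to 23183674, minus strand), SLC7A1 (ENSG00000139514.13, chromosome 13, 29509410 to 29595688, minus strand), SLC1A4 (ENSG00000115902.11, chromosome 2, 64988477 to 65023865, plus strand), SLC1A5 (ENSG00000105281.12, chromosome 19, 46774883 to 46788594, minus strand), SLC38A1 (ENSG00000111371.15, chromosome 12, 46183063 to 46270017, minus strand), SLC38A2 (ENSG00000134294.14, chromosome 12, 46358189 to 46372867, minus strand) and SLC1A3 (ENSG00000079215.14, chromosome 5, 36606355 to 36688334, plus strand). IDs are those of the table, and positions are those of GENCODE 29 on hg38. SLC38A1 and SLC38A2 are neighbours on chromosome 12. Expected counts of SLC7A5 were not whole numbers in all 18 libraries, and those of the other 8 genes were whole. SLC7A5 has near copies, of which SLC7A5P1 was listed at 0.806 to 2.38 CPM, the count scaled to library size, and SLC7A5P2 at 0 to 0.791 CPM. How many reads SLC7A5 shares with these or other sequences was not measured, so its level is uncertain. Annotated antisense RNAs share exon sequence with SLC7A5 and SLC1A5, and they were listed at 0 and at no more than 0.254 CPM. Whether the counting of these stranded libraries used strand is not given in the sources used here.

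RefSeq promoter windows (GRCh38.p14, 250 bases before to 50 after a start site) were searched on both strands for TGATGNAAN (N is any base), the letters of the element that ATF4 and C/EBP factors bind, for CACGTG, an E-box of the kind bound by MYC, and for GTAAACA, a motif of FOXO factors. The 9 genes have 20 such windows. TGATGNAAN was present in 6 of them, in 6 genes, against 3.61% of all 35116 windows and 4.45% of all genes. CACGTG was present in 3 windows of 3 genes, against 7.26% of all windows and 8.77% of genes. GTAAACA was present in 1 window, of SLC1A5, against 3.42% of all windows and 4.19% of genes, and it is not shown. A match is a description of the letters and not a shown site, and most of these genes have several windows. The matches are shown in capitals on the strand of the gene, because RNA of ATF4 and MYC, among these factors, is given below. Those to TGATGNAAN come first, and in SLC3A2 and SLC1A4 this motif lies on the opposite strand. No match to one motif overlapped a match to another.
SLC3A2: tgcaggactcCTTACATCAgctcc
SLC7A1: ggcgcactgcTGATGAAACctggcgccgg
SLC1A4: gcggctcccgTTTGCATCAtctccagccg
SLC1A5: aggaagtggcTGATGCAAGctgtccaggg
SLC38A1: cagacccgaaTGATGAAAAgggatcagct
SLC1A3: aggaaatgacTGATGCAAAgcagggttaa
They lie at chr11:62881725-62881748 (plus strand), chr13:29595663-29595691 (minus strand), chr2:64989381-64989409 (plus strand), chr19:46784893-46784921 (minus strand), chr12:46266502-46266530 (minus strand) and chr5:36596358-36596386 (plus strand). The matches to CACGTG were in SLC7A5, SLC7A8 and SLC1A5.
SLC7A5: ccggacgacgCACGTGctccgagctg
SLC7A8: caattagaaaCACGTGctcagttcct
SLC1A5: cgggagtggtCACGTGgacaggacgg
Their positions are chr16:87869622-87869647, chr14:23154507-23154532 and chr19:46787328-46787353, all on the minus strand. SLC38A2 had none of the motifs.

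Library totals ran from 10.2 to 21.1 M expected counts. The 9 genes had between 92 and 3539 expected counts in a library, lowest for SLC1A3 and highest for SLC7A8. All 7 markers of adrenocortical cells were measured. Their summed level was 999.8 to 1046 CPM with STA9090+PIK75 and 1293 to 1485 CPM with PIK75, against 2092 to 2517 CPM in untreated cells, and it lay between 2019 and 2636 CPM in the other 3 groups. Singly, against untreated cells (edgeR, adjusted p under 0.05), 3 of the 7 were higher and 3 lower with BGT226 and also with STA9090+BGT226. With PIK75 5 were lower, with STA9090+PIK75 all 7, and with STA9090 1 was higher. Of 14 markers of fibroblasts, endothelium, leukocytes and other epithelium, 3 (COL1A1, CD14 and EPCAM) passed the filter on low counts and 3 (CDH5, CD3E and KRT19) were at 0 in all libraries. That list summed to 2.77 to 3.97 CPM with STA9090+PIK75 and 6.77 to 9.38 CPM with PIK75, against 10.2 to 13.9 CPM in untreated cells, and it was 8.69 to 11.6 CPM in the other groups. COL1A1 alone ran from 0.625 to 10.8 CPM over the libraries, and EPCAM, the next highest, from 0.605 to 2.64 CPM. Of the 3 that passed the filter, 1 was called higher and 1 lower with STA9090+PIK75 against untreated cells. Counts of 4 noncoding RNAs of RNA polymerase III, namely RN7SL1, RN7SL2, RPPH1 and RN7SK, made up 28.6% to 40.4% of a library, on average 38.0% ± 2.26 with STA9090+PIK75 and 32.3% ± 4.70 in untreated cells (SD, n = 3). On the third principal component STA9090 replicate 1 (30.1, against 11.98 and 9.16) and PIK75 replicate 3 (-35.4, against -22.6 and -22.5) stood apart from the other libraries of their groups, and calls that end without them are given as such. The part of these shifts in the results was not tested. Levels are CPM scaled by TMM, so a change is relative to the other RNAs of the library. In such bulk libraries fewer cells that express a gene and less of its RNA per cell cannot be told apart.

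Per kilobase of annotated exon, SLC7A8 and SLC7A1 were the most abundant of the 9 transcripts in untreated cells, at 26.4 ± 0.618 and 21.6 ± 0.891 CPM per kilobase (SD, n = 3). SLC3A2 followed at 19.2 ± 1.66 and SLC38A2 at 17.6 ± 0.645 CPM per kilobase, then SLC1A4 at 13.3 ± 0.986. SLC1A5 (6.79 ± 0.411), SLC7A5 (6.45 ± 0.265), SLC38A1 (5.82 ± 0.490) and SLC1A3 (4.58 ± 0.337) formed the lower end on the same scale. The RNA of LAT2 was thus 4.15, 3.94 and 4.22 times that of LAT1 in the untreated libraries. The length is the union of all annotated exons, which is longer than any transcript where a gene has alternative ends.

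Each inhibitor was set against untreated cells to ask what it does alone. With BGT226, 6 of the 9 transcripts fell and 1 rose (adjusted p under 0.05, edgeR), where 15.7% of all tested genes were called lower and 12.8% higher. The falls were largest in the glutamate carrier SLC1A3, to 0.425 of the untreated level, and in the leucine exchanger SLC7A5, to 0.478. With PIK75, 3 rose and 4 fell, against 8.49% and 10.2% of all genes. STA9090 alone raised 1 by edgeR, SLC38A1, and 2 by DESeq2, which added SLC38A2. It lowered 0 by either tool (1.16% and 1.68% of all genes), with 2 higher and 1 lower at an unadjusted p under 0.05. With STA9090+PIK75, 3 rose and 3 fell (18.3% and 20.1% of all genes). With STA9090+BGT226, 1 rose and 6 fell (19.4% and 20.4% of all genes).

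The median log2 fold change of the 9 was -0.08 with STA9090, -0.16 with PIK75, -0.42 with BGT226, -0.18 with STA9090+PIK75 and -0.37 with STA9090+BGT226, where the median of all tested genes lay between 0.00 and 0.03. Summed over the 9 genes, the level was 781 ± 14.9 CPM with STA9090, 773 ± 20.3 with PIK75, 674 ± 2.27 with BGT226, 814 ± 8.45 with STA9090+PIK75, 656 ± 17.5 with STA9090+BGT226 and 774 ± 12.4 in untreated cells (SD, n = 3). Both BGT226 groups thus lay below every untreated library in the sum. The 5 comparisons share the untreated libraries, so they are not independent of each other.

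**Figure D1:**
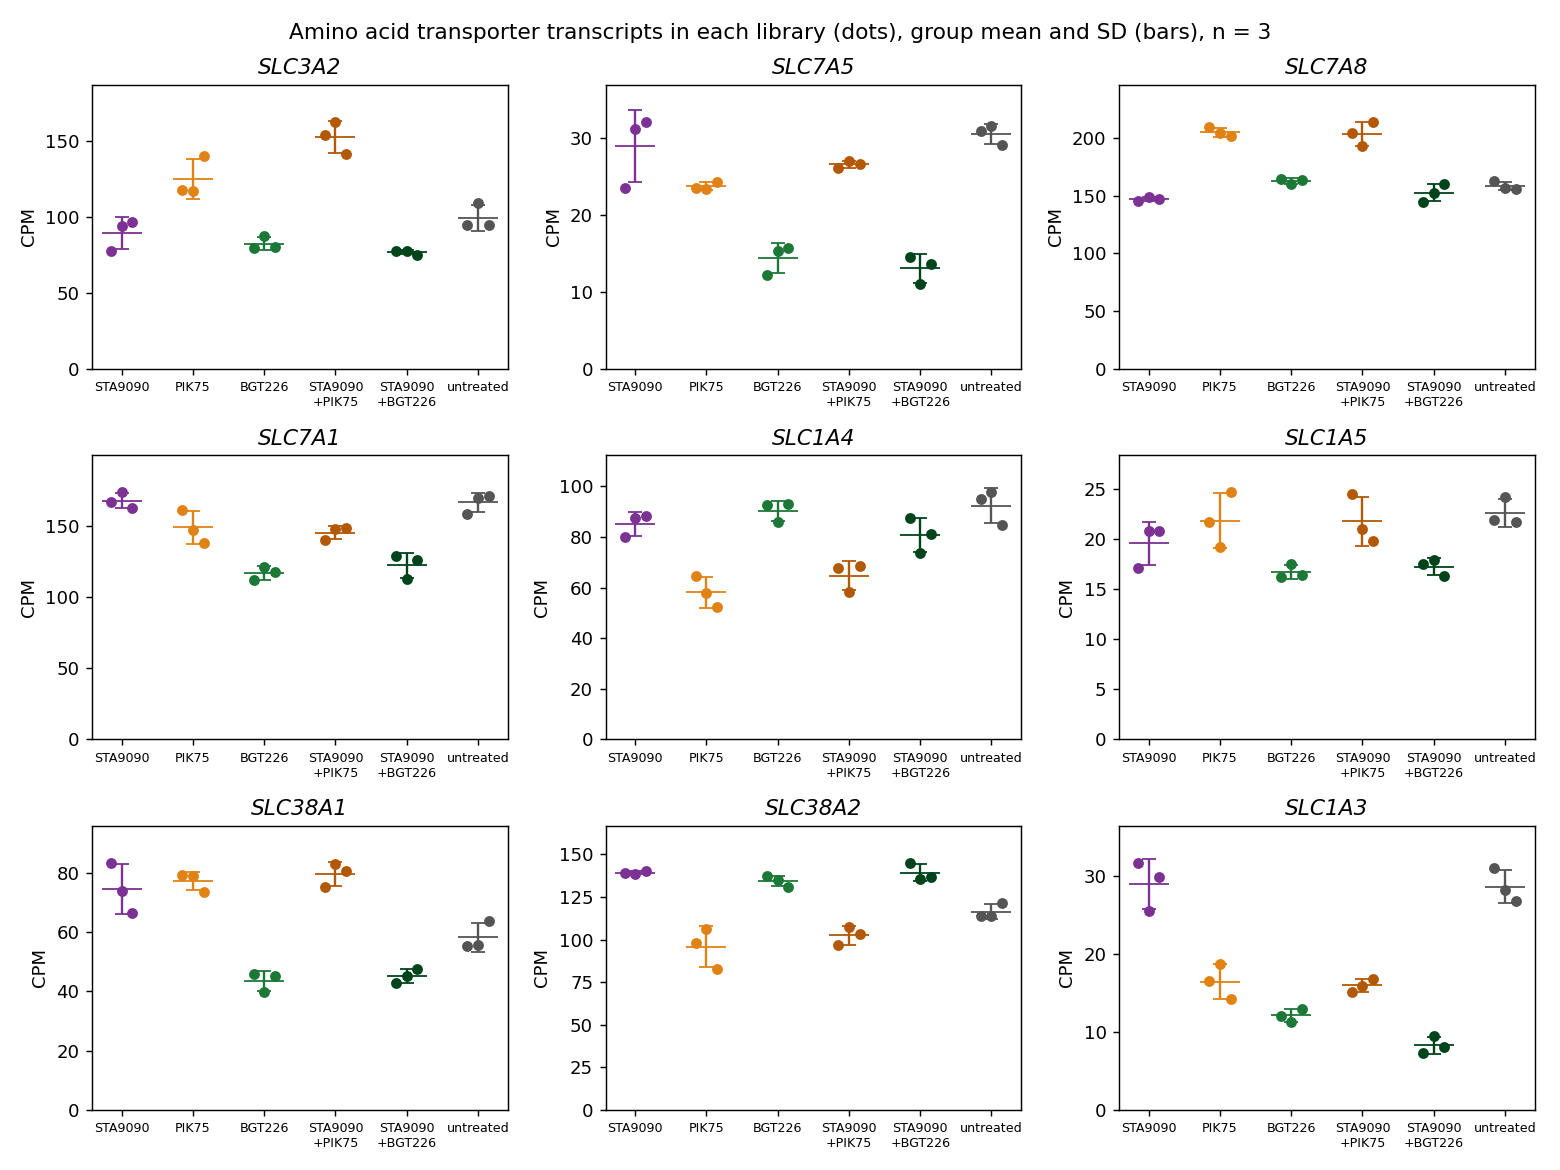
Level of each of the 9 transcripts in CPM (y axis, from 0) in the 3 libraries of each group (x axis). Dots are libraries and bars the mean with SD. SLC3A2, SLC7A5, SLC7A1, SLC1A5, SLC38A1 and SLC1A3 were lower in all BGT226 and STA9090+BGT226 libraries than in any untreated library. SLC38A2 was higher in all of them. In all PIK75 and STA9090+PIK75 libraries, SLC7A5, SLC1A4, SLC38A2 and SLC1A3 were lower than in any untreated library. There SLC3A2, SLC7A8 and SLC38A1 were higher.

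The heavy chain SLC3A2 went in opposite directions with the PI3K inhibitors. It was at 77.5, 94.2 and 96.7 CPM in the STA9090 libraries, 118, 117 and 140.1 CPM with PIK75 and 79.8, 87.4 and 80.3 CPM with BGT226, against 94.7, 109.5 and 94.5 CPM in untreated cells. With the combinations it was at 154, 163 and 142 CPM with STA9090+PIK75 and 77.9, 77.4 and 75.2 CPM with STA9090+BGT226. The STA9090+PIK75 libraries lay above all others, the PIK75 libraries above every untreated one, and the BGT226 libraries below every untreated one, while STA9090 overlapped untreated cells. SLC3A2 rose with PIK75 (log2 fold change 0.33, SE 0.0912, adjusted p = 0.0152) and with STA9090+PIK75 (log2 fold change 0.62, SE 0.0911, adjusted p = 2.14e-05). It fell with BGT226 (log2 fold change -0.27, SE 0.0918, adjusted p = 0.0312) and with STA9090+BGT226 (log2 fold change -0.37, SE 0.0920, adjusted p = 0.00291). The value with STA9090 was -0.16, SE 0.0917, adjusted p = 0.383. STA9090+PIK75 also exceeded PIK75 alone (0.29, SE 0.0905, adjusted p = 0.0240). The rise with PIK75 was not called without untreated replicate 1 (0.29), untreated replicate 3 (0.29) or PIK75 replicate 3 (0.24), nor the fall with BGT226 without untreated replicate 2 (-0.20), BGT226 replicate 1 (-0.25) or BGT226 replicate 3 (-0.25), nor the excess over PIK75 without PIK75 replicate 1 (0.25), PIK75 replicate 2 (0.24), STA9090+PIK75 replicate 1 (0.28) or STA9090+PIK75 replicate 2 (0.24), in log2 fold changes.

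The light chain SLC7A5 fell most with BGT226. Its levels were 23.6, 31.3 and 32.1 CPM with STA9090, 23.5, 23.4 and 24.4 CPM with PIK75 and 12.2, 15.4 and 15.8 CPM with BGT226, against 31.0, 31.6 and 29.2 CPM in untreated cells. They were 26.2, 27.0 and 26.7 CPM with STA9090+PIK75 and 14.6, 11.0 and 13.6 CPM with STA9090+BGT226. The libraries of both BGT226 groups were the lowest 6 of the 18 and overlapped each other. SLC7A5 averaged 14.5 ± 1.95 CPM with BGT226 and 30.6 ± 1.26 CPM in untreated cells (n = 3, SD), with log2 fold change -1.06, SE 0.115, adjusted p = 1.08e-06. With STA9090+BGT226 it averaged 13.1 ± 1.85 CPM (log2 fold change -1.23, SE 0.116, adjusted p = 1.04e-07). The fall with PIK75 was smaller (log2 fold change -0.37, SE 0.111, adjusted p = 0.0248) and was not called without untreated replicate 1 (-0.36), untreated replicate 2 (-0.34), PIK75 replicate 1 (-0.37) or PIK75 replicate 2 (-0.36). With STA9090+PIK75 it did not pass (-0.20, SE 0.110, adjusted p = 0.158), although its 3 libraries lay below all untreated ones.

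SLC7A8, the other light chain, followed the heavy chain with PIK75 but not with BGT226. It stood at 145, 149 and 147 CPM with STA9090, 209, 204 and 202 CPM with PIK75 and 164, 159.9 and 164 CPM with BGT226, against 163, 157 and 156 CPM in untreated cells. The combinations gave 204, 193 and 214 CPM with STA9090+PIK75 and 145, 153 and 160.0 CPM with STA9090+BGT226. Both PIK75 groups lay above all other libraries and overlapped each other, and the STA9090 libraries lay just below the untreated ones. The rise was called with PIK75 (log2 fold change 0.37, SE 0.0651, adjusted p = 0.000391) and with STA9090+PIK75 (log2 fold change 0.36, SE 0.0651, adjusted p = 0.000173), and it was called in each setting and with each library left out. STA9090 alone gave -0.11, SE 0.0652, adjusted p = 0.395, which did not pass. For BGT226 the difference from untreated cells was 0.04 (95% interval -0.10 to 0.17, adjusted p = 0.698).

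The ratio of heavy chain to LAT1 RNA was higher with either PI3K inhibitor. SLC3A2 over SLC7A5, in CPM per kilobase, was 3.01, 2.76 and 2.76 with STA9090, 4.60, 4.60 and 5.27 with PIK75 and 5.99, 5.20 and 4.67 with BGT226, against 2.80, 3.18 and 2.97 in untreated cells. It was 5.39, 5.52 and 4.86 with STA9090+PIK75 and 4.89, 6.44 and 5.07 with STA9090+BGT226. All 12 libraries with a PI3K inhibitor lay above all 6 without one. With PIK75 SLC3A2 rose (0.33) and SLC7A5 fell (-0.37, log2 fold changes), and with BGT226 both fell (-0.27 and -1.06). SLC7A8 over SLC7A5 was 7.05, 6.92 and 6.56 with PIK75 and 10.7, 8.23 and 8.24 with BGT226, against 4.15, 3.94 and 4.22 in untreated cells. These ratios are descriptions, and no test was run on them.

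The arginine and lysine carrier SLC7A1 fell with BGT226. It was at 167, 174 and 163 CPM with STA9090, 162, 147 and 138 CPM with PIK75 and 112, 121 and 118 CPM with BGT226, against 159, 169.8 and 171 CPM in untreated cells. In the combinations it was at 140.0, 148 and 148 CPM with STA9090+PIK75 and 129, 112 and 126 CPM with STA9090+BGT226. Both BGT226 groups lay below all other libraries, STA9090 overlapped untreated cells, PIK75 did so with its replicate 1, and STA9090+PIK75 lay just below them. The fall was called with BGT226 (log2 fold change -0.51, SE 0.0745, adjusted p = 3.67e-05) and with STA9090+BGT226 (log2 fold change -0.44, SE 0.0744, adjusted p = 8.77e-05). PIK75 gave -0.16, SE 0.0742, adjusted p = 0.145. The smaller fall with STA9090+PIK75 (log2 fold change -0.20, SE 0.0742, adjusted p = 0.0432) was not called without untreated replicate 2 (-0.18), untreated replicate 3 (-0.18), STA9090+PIK75 replicate 1 (-0.17), STA9090+PIK75 replicate 2 (-0.21) or STA9090+PIK75 replicate 3 (-0.21), or with the replicate block (adjusted p = 0.0585), the compared groups alone (0.0803) or no filter on low counts (0.0852).

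The neutral exchangers SLC1A4 and SLC1A5 each fell with a different PI3K inhibitor. SLC1A4 was at 79.9, 87.6 and 88.5 CPM with STA9090, 64.4, 58.0 and 52.2 CPM with PIK75 and 92.5, 85.9 and 92.9 CPM with BGT226, against 94.9, 97.6 and 84.7 CPM in untreated cells. The combinations stood at 67.7, 58.1 and 68.5 CPM with STA9090+PIK75 and 87.4, 73.6 and 81.4 CPM with STA9090+BGT226. All 6 libraries with PIK75 lay below the other 12, which overlapped among their groups. SLC1A4 averaged 58.2 ± 6.14 CPM with PIK75 and 92.4 ± 6.84 CPM in untreated cells (n = 3, SD), with log2 fold change -0.67, SE 0.0890, adjusted p = 2.58e-05, and it fell with STA9090+PIK75 too (log2 fold change -0.51, SE 0.0885, adjusted p = 0.000121). With STA9090+BGT226 it did not pass (-0.19, SE 0.0875, adjusted p = 0.0832), but it did without untreated replicate 3 (-0.28) or STA9090+BGT226 replicate 1 (-0.25). With BGT226 the difference was -0.03 (95% interval -0.21 to 0.15, adjusted p = 0.827).

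SLC1A5 was at 17.1, 20.8 and 20.8 CPM with STA9090, 21.8, 19.2 and 24.7 CPM with PIK75 and 16.3, 17.5 and 16.4 CPM with BGT226, against 21.9, 24.2 and 21.7 CPM in untreated cells. It was at 24.6, 21.04 and 19.8 CPM with STA9090+PIK75 and 17.5, 18.0 and 16.3 CPM with STA9090+BGT226. The BGT226 groups overlapped each other below all untreated libraries, the STA9090 libraries also lay below the untreated ones, and the PIK75 groups spanned the untreated range. SLC1A5 fell with BGT226 (log2 fold change -0.44, SE 0.104, adjusted p = 0.00346) and with STA9090+BGT226 (log2 fold change -0.39, SE 0.104, adjusted p = 0.00496). The difference with STA9090 did not pass (-0.22, SE 0.103, adjusted p = 0.271). It did not pass with PIK75 either (-0.05, 95% interval -0.27 to 0.16, adjusted p = 0.779). SLC1A4 over SLC1A5, per kilobase, was 1.42, 1.45 and 1.01 with PIK75 and 2.73, 2.35 and 2.72 with BGT226, against 2.08, 1.94 and 1.87 in untreated cells, so that the PIK75 libraries lay below and the BGT226 libraries above the untreated ones.

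The neighbouring genes SLC38A1 and SLC38A2, both sodium-coupled carriers of glutamine, moved against each other with PIK75 alone and with BGT226 alone. SLC38A1 was at 83.4, 73.7 and 66.4 CPM with STA9090, 79.2, 79.0 and 73.7 CPM with PIK75 and 46.0, 39.6 and 45.1 CPM with BGT226, against 55.2, 55.6 and 63.9 CPM in untreated cells. It was at 75.2, 83.2 and 80.8 CPM with STA9090+PIK75 and 42.9, 45.3 and 47.7 CPM with STA9090+BGT226. The untreated libraries separated the groups, with STA9090 and both PIK75 groups above them and both BGT226 groups below. SLC38A1 rose with PIK75 (log2 fold change 0.41, SE 0.0845, adjusted p = 0.00183) and STA9090+PIK75 (log2 fold change 0.45, SE 0.0844, adjusted p = 0.000261), and fell with BGT226 (log2 fold change -0.42, SE 0.0864, adjusted p = 0.00110) and STA9090+BGT226 (log2 fold change -0.36, SE 0.0860, adjusted p = 0.00231). Its rise with STA9090 (log2 fold change 0.36, SE 0.0845, adjusted p = 0.0286) was not called with the compared groups alone (0.36, adjusted p = 0.192), nor without untreated replicate 1 (0.31), untreated replicate 2 (0.33), STA9090 replicate 1 (0.26) or STA9090 replicate 2 (0.37).

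For SLC38A2 the PIK75 and BGT226 groups lay on the opposite sides of untreated cells from those of SLC38A1. It was at 139, 138 and 140.5 CPM with STA9090, 98.1, 106 and 82.8 CPM with PIK75 and 137, 135 and 131 CPM with BGT226, against 114, 114 and 121 CPM in untreated cells. With STA9090+PIK75 it was at 96.8, 107 and 103 CPM and with STA9090+BGT226 at 145, 136 and 137 CPM. STA9090 and both BGT226 groups lay above all untreated libraries, with STA9090+BGT226 overlapping the other two, and both PIK75 groups lay below them. SLC38A2 fell with PIK75 (log2 fold change -0.28, SE 0.0780, adjusted p = 0.0154) and rose with STA9090+BGT226 (log2 fold change 0.26, SE 0.0774, adjusted p = 0.0116). Its rise with BGT226 (log2 fold change 0.21, SE 0.0775, adjusted p = 0.0493) was close to the threshold, and it was not called without untreated replicate 1 (0.19), untreated replicate 2 (0.19), untreated replicate 3 (0.23), BGT226 replicate 1 (0.19), BGT226 replicate 2 (0.20) or BGT226 replicate 3 (0.23), with the replicate block (adjusted p = 0.0608) or with no filter on low counts (0.192). The fall with PIK75 was not called without untreated replicate 3 (-0.25) or PIK75 replicate 3 (-0.19), or with the compared groups alone (-0.28, adjusted p = 0.0797), nor the rise with STA9090+BGT226 without untreated replicate 1 (0.23) or STA9090+BGT226 replicate 1 (0.23), or with no filter (adjusted p = 0.0516). With STA9090+PIK75 it stood at -0.18, SE 0.0779, adjusted p = 0.0691, and it passed in DESeq2 (-0.18, adjusted p = 0.0493). With STA9090 it did not pass (0.26, SE 0.0775, adjusted p = 0.0711), but it did in DESeq2 (0.26, adjusted p = 0.0189). Per kilobase, SLC38A2 over SLC38A1 was 1.88, 2.04 and 1.70 with PIK75 and 4.52, 5.18 and 4.41 with BGT226, against 3.12, 3.11 and 2.88 in untreated cells.

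The glutamate and aspartate carrier SLC1A3 fell with every PI3K inhibitor treatment. It was at 31.7, 25.5 and 29.9 CPM with STA9090, 16.5, 18.7 and 14.2 CPM with PIK75 and 12.1, 11.3 and 12.98 CPM with BGT226, against 31.0, 28.2 and 26.9 CPM in untreated cells. The combinations gave 15.2, 15.9 and 16.9 CPM with STA9090+PIK75 and 7.34, 9.51 and 8.10 CPM with STA9090+BGT226. All 12 libraries with a PI3K inhibitor lay below the other 6, STA9090+BGT226 was the lowest group and did not overlap BGT226, and STA9090 overlapped untreated cells. SLC1A3 averaged 8.31 ± 1.10 CPM with STA9090+BGT226 and 28.7 ± 2.11 CPM in untreated cells (n = 3, SD), with log2 fold change -1.79, SE 0.116, adjusted p = 9.34e-10, a fall to 0.290 of the untreated level. The other falls were -1.23, SE 0.111, adjusted p = 1.08e-07 with BGT226, -0.80, SE 0.108, adjusted p = 3.08e-05 with PIK75 and -0.84, SE 0.109, adjusted p = 4.1e-06 with STA9090+PIK75. The difference of STA9090+BGT226 from BGT226 (-0.55, SE 0.125, adjusted p = 0.0198) was not called without BGT226 replicate 1 (-0.56), BGT226 replicate 3 (-0.51), STA9090+BGT226 replicate 1 (-0.48) or STA9090+BGT226 replicate 3 (-0.55).

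**Figure D2:**
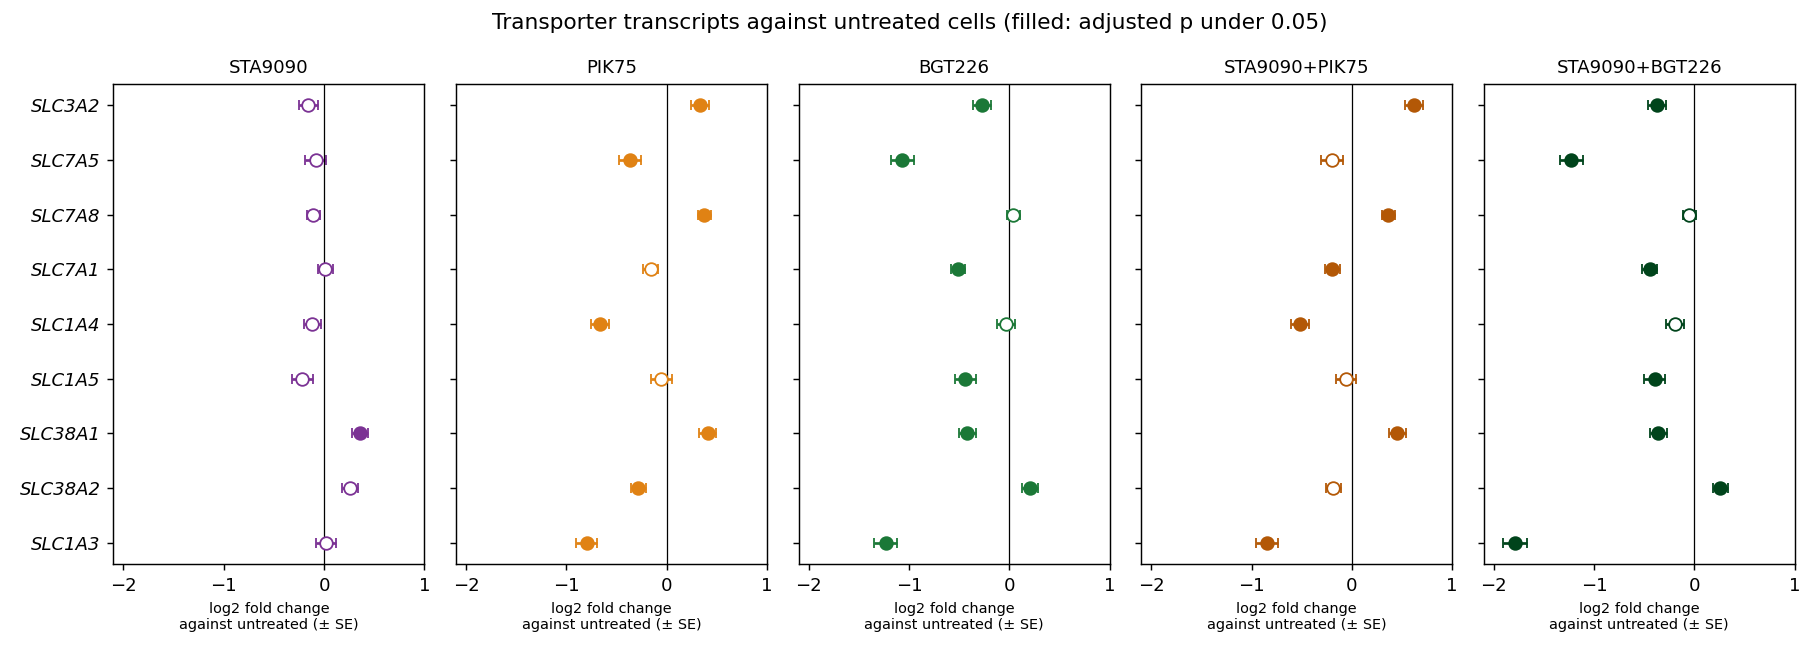
Log2 fold change of each transcript against untreated cells (x axis, with SE) for the 5 treatments. Filled dots passed an adjusted p of 0.05. PIK75 and STA9090+PIK75 raised SLC3A2, SLC7A8 and SLC38A1, and BGT226 and STA9090+BGT226 lowered 6 of the 9, with SLC1A3 and SLC7A5 farthest left.

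**Figure D3:**
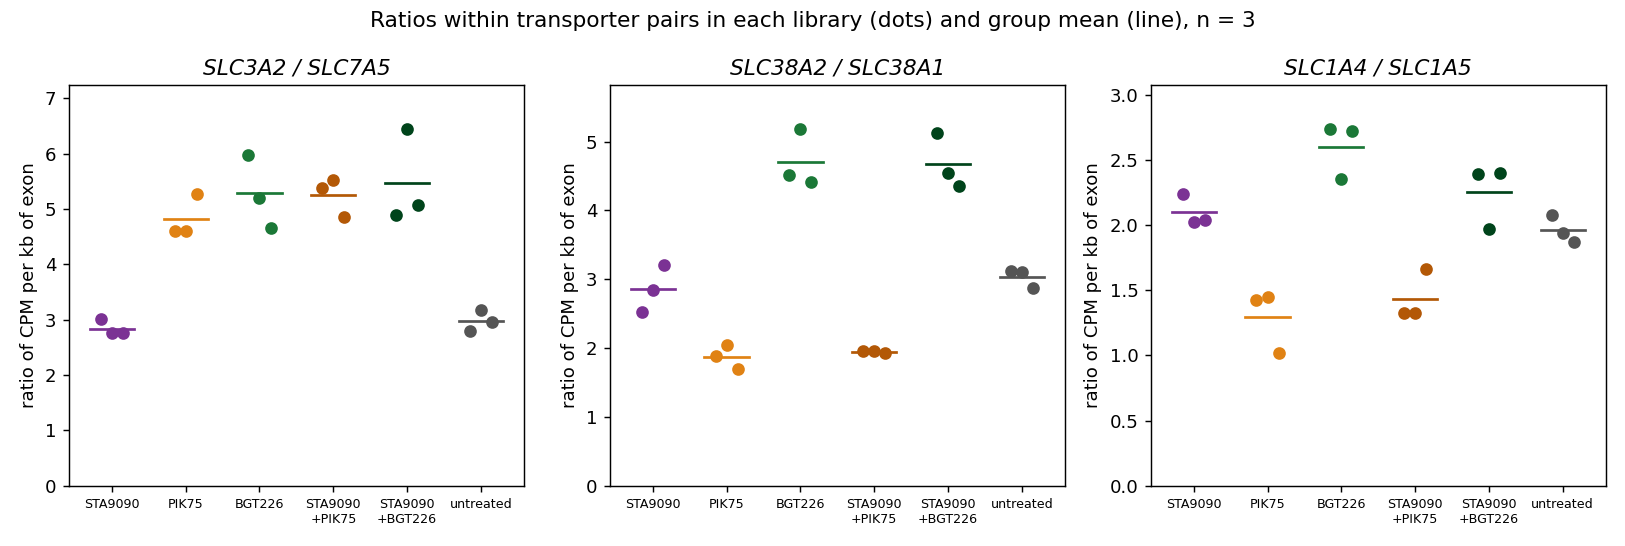
Ratio of CPM per kilobase of exon (y axis, from 0) within 3 transporter pairs in each library (dots) with the group mean (line). The ratio of SLC38A2 to SLC38A1 was below the untreated libraries in all PIK75 libraries and above them in all BGT226 libraries, single or combined. That of SLC1A4 to SLC1A5 was below them with PIK75 and above them with BGT226 alone.

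PIK75 and BGT226 were compared directly at the same stated dose and time. All 9 transcripts differed, 2 higher and 7 lower with BGT226, where 15.5% and 16.5% of all tested genes were called in those directions. SLC1A4 (0.64, SE 0.0890, adjusted p = 1.62e-05) and SLC38A2 (0.49, SE 0.0780, adjusted p = 6.84e-05) were higher with BGT226. Among the lower ones, SLC38A1 differed most (-0.83, SE 0.0858, adjusted p = 4.15e-07), followed by SLC7A5 (-0.70) and SLC3A2 (-0.60). The same contrast in the presence of STA9090 again gave 2 higher and 7 lower (22.4% and 20.9% of all genes), in the same direction for each gene. There SLC7A5 (-1.03, SE 0.118, adjusted p = 6.96e-07), SLC3A2 (-0.99) and SLC1A3 (-0.94) differed most. For no gene did the groups overlap in either contrast, where 47.3% of all genes were without overlap between the single agents and 54% between the combinations. The call for SLC1A5 ended without PIK75 replicate 3 (-0.29) for the single agents and without STA9090+PIK75 replicate 1 (-0.25) or STA9090+BGT226 replicate 3 (-0.31) for the combinations, and that for SLC7A1 between the combinations without STA9090+BGT226 replicate 2 (-0.19). How far each compound blocked its targets at the stated dose was not measured here.

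**Figure D4:**
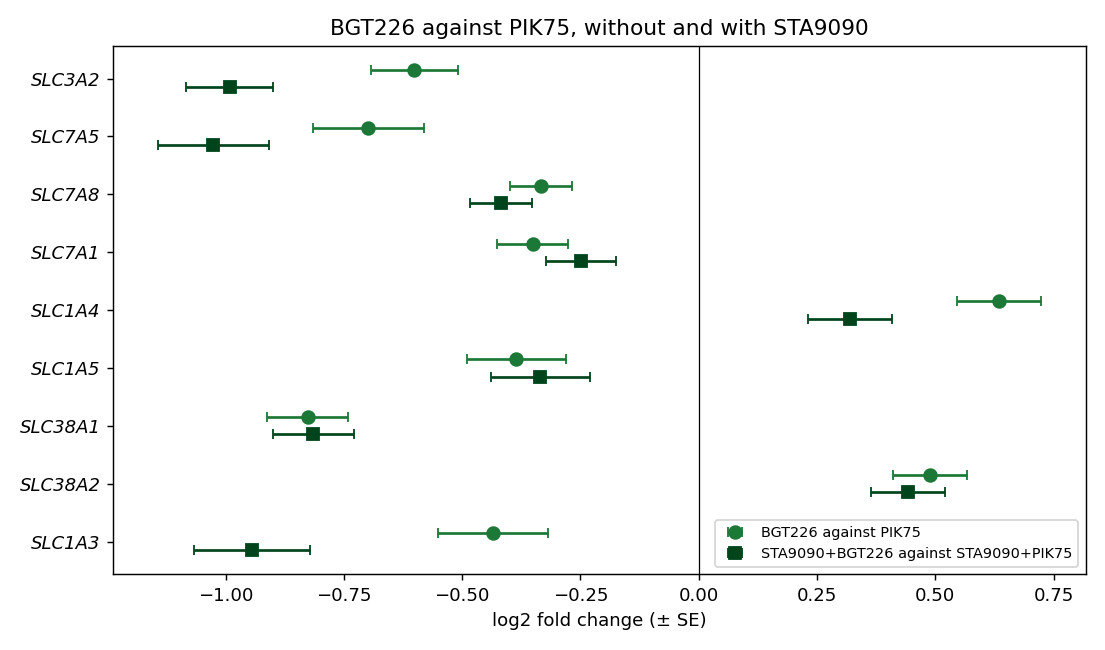
Log2 fold change (x axis, with SE) of BGT226 against PIK75 (circles) and of STA9090+BGT226 against STA9090+PIK75 (squares) for the 9 transcripts. SLC1A4 and SLC38A2 lie to the right of 0 and the other 7 to the left in both contrasts.

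Each combination was also set against its parts. Adding PIK75 to STA9090 raised SLC3A2 (0.77, SE 0.0915, adjusted p = 1.78e-06) and SLC7A8 (0.47, SE 0.0652, adjusted p = 1.09e-05), and lowered SLC1A3 (-0.86), SLC38A2 (-0.44), SLC1A4 (-0.40) and SLC7A1 (-0.21), 2 and 4 of the 9 (17.7% and 19.8% of all genes). The SLC7A1 call ended without STA9090 replicate 1 (-0.20), STA9090 replicate 2 (-0.19), STA9090+PIK75 replicate 1 (-0.18), STA9090+PIK75 replicate 2 (-0.22) or STA9090+PIK75 replicate 3 (-0.21), and with no filter on low counts (adjusted p = 0.0719) or the compared groups alone (0.0733). Adding BGT226 to STA9090 lowered 4, namely SLC1A3 (-1.81, SE 0.116, adjusted p = 8.41e-10), SLC7A5 (-1.14), SLC38A1 (-0.72) and SLC7A1 (-0.46). SLC3A2 stood at -0.22, SE 0.0921, adjusted p = 0.0643, and it was called lower in DESeq2 (-0.23) and without STA9090 replicate 1 (-0.32). Adding BGT226 raised 0 by edgeR and by DESeq2, and 0 had an unadjusted p under 0.05 in that direction (20.9% of all genes were lower and 19.5% higher).

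STA9090 was also added to each PI3K inhibitor. Adding STA9090 to PIK75 raised 1 of the 9, SLC3A2, and lowered 0, with 0 at an unadjusted p under 0.05 and 0 by DESeq2, although 11.3% of all genes were called higher and 14% lower. The other 8 lay between -0.04 (SLC1A3) and 0.17 (SLC7A5). Adding STA9090 to BGT226 lowered 1, SLC1A3, and raised 0 by edgeR and by DESeq2, with 0 at an unadjusted p under 0.05 (1.7% and 0.988% of all genes). The interaction asks whether STA9090 shifts a transcript differently with the PI3K inhibitor than without it, on the log2 scale. With PIK75 it was called for SLC3A2 (0.44, SE 0.129, adjusted p = 0.0352), 1 higher and 0 lower of 9 by edgeR and by DESeq2, with 2 and 1 at an unadjusted p under 0.05 (3.54% and 5.73% of all genes). That call ended when only the compared groups were fitted (0.46, adjusted p = 0.0856) and without untreated replicate 2 (0.37), STA9090 replicate 1 (0.36), PIK75 replicate 1 (0.42), PIK75 replicate 2 (0.41), STA9090+PIK75 replicate 1 (0.44) or STA9090+PIK75 replicate 2 (0.39). SLC38A1 stood at -0.31, SE 0.119, adjusted p = 0.106, and it was called lower without untreated replicate 3 (-0.40) or without STA9090 replicate 3 (-0.39). With BGT226 0 of 9 passed by edgeR and by DESeq2 (0.00633% of all genes higher, 0% lower). At an unadjusted p under 0.05 there were 2, both lower, SLC1A3 (-0.57, SE 0.162, adjusted p = 0.266) and SLC38A1 (-0.30, SE 0.121, adjusted p = 0.425).

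Among themselves the 9 transcripts formed no single pattern over the 18 libraries. Pearson correlations of log2 CPM, which mainly reflect the 6 group means and carry no test, were highest between SLC7A5 and SLC7A1 (0.91), SLC7A1 and SLC1A3 (0.85), SLC7A5 and SLC1A3 (0.84) and SLC3A2 and SLC7A8 (0.82). SLC38A2 ran against SLC7A8 (-0.88) and SLC3A2 (-0.86), and SLC1A4 against SLC7A8 (-0.79). The heavy chain and LAT1 were at 0.59. The 6 genes with TGATGNAAN in a promoter window were in no single direction. With PIK75 SLC3A2 and SLC38A1 rose and SLC1A4 and SLC1A3 fell, and with BGT226 all of the 6 but SLC1A4 fell. Of the 3 with CACGTG, SLC7A5 and SLC1A5 fell with BGT226 and SLC7A8 did not pass.

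Of 9863 other protein-coding genes with a mean of at least 5 CPM, those closest to each transporter over the 18 libraries were named by Pearson r of log2 CPM, as a description. For SLC3A2 they were RPAP1 (0.98), DHX34 (0.97) and DCAF15 (0.97), and for SLC7A5 NPLOC4 (0.97), PSMD2 (0.97) and NDUFA8 (0.97), of which PSMD2 encodes a proteasome subunit. SLC7A8 was closest to DACT1 (0.97), LYRM9 (0.95) and DOC2B (0.95). SLC7A1 was closest to MRAS (0.94), SKP2 (0.94) and HMGCS1 (0.94), the last an enzyme of cholesterol synthesis. SLC1A3 ran with CLTC (0.95), FDPS (0.95) and AP1S1 (0.95), among them the clathrin heavy chain gene CLTC. For SLC1A4 they were AFF2 (0.91), TM7SF3 (0.91) and ZNF784 (0.90), and for SLC1A5 DLGAP3 (0.94), CPSF4 (0.92) and MEN1 (0.92). For SLC38A1 they were EBNA1BP2 (0.95), BUB1B (0.94) and HOMER1 (0.94), and for SLC38A2 PRKAA1 (0.93), PLCE1 (0.92) and NCSTN (0.92), of which PRKAA1 encodes a catalytic subunit of the energy sensor AMPK.

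Other amino acid transporters gave a wider frame. Of 44 listed, 24 had enough counts to be tested. Among these 4 rose and 3 fell with PIK75, 0 rose and 7 fell with BGT226, 5 rose and 8 fell with STA9090+PIK75, 0 rose and 10 fell with STA9090+BGT226, and 1 rose and 0 fell with STA9090. Of all tested genes, 8.49% rose and 10.2% fell with PIK75, and 12.8% and 15.7% with BGT226. These shares were 18.3% and 20.1% with STA9090+PIK75, 19.4% and 20.4% with STA9090+BGT226, and 1.16% and 1.68% with STA9090. Means in this and the next paragraphs are over 3 libraries, with SD. DESeq2 gave 0 rises with BGT226 and with STA9090+BGT226 as well, and edgeR 1 and 0 at an unadjusted p under 0.05; with STA9090 edgeR had 4 lower by that measure and DESeq2 2. The glycine transporter SLC6A9 was at 95.7 ± 1.86 CPM with PIK75 and 57.7 ± 1.12 CPM in untreated cells (log2 fold change 0.73, adjusted p = 2e-08), but at 30.6 ± 1.46 CPM with BGT226 (log2 fold change -0.91, adjusted p = 1.92e-09). The taurine transporter SLC6A6 was at 81.8 ± 2.09 CPM with BGT226 and 165 ± 1.01 CPM in untreated cells (log2 fold change -1.01, adjusted p = 1.56e-08), and it fell with PIK75 as well (-0.73). The cystine and glutamate exchanger SLC7A11, another partner of the heavy chain, was at 22.7 ± 2.05 CPM with STA9090+PIK75 and 11.5 ± 1.29 CPM in untreated cells (log2 fold change 0.99, adjusted p = 3.41e-06). It rose with STA9090 alone (0.53), a call that ended when only the compared groups were fitted and without untreated replicate 1 (0.45), untreated replicate 2 (0.52), STA9090 replicate 1 (0.45) or STA9090 replicate 2 (0.56), and it fell with BGT226 to 5.60 ± 0.792 CPM (log2 fold change -1.06, adjusted p = 1.88e-05), and with PIK75 it stood at 0.02 (adjusted p = 0.945). SLC1A1, like SLC1A3 a glutamate carrier, rose with PIK75, at 7.86 ± 0.740 CPM against 3.42 ± 0.0570 CPM in untreated cells (log2 fold change 1.20, adjusted p = 5.64e-05). The facilitative carrier SLC43A1, which like LAT1 accepts large neutral amino acids, rose with PIK75 too (0.73). The median log2 fold change of the list was -0.21 with BGT226 and -0.01 with PIK75.

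Of 32 genes that relay amino acid levels to mTORC1, 6 rose and 4 fell with PIK75, 6 rose and 6 fell with BGT226, 8 rose and 6 fell with STA9090+PIK75 and 7 rose and 9 fell with STA9090+BGT226. Of all tested genes, 8.49% rose and 10.2% fell with PIK75, and 12.8% and 15.7% with BGT226. These shares were 18.3% and 20.1% with STA9090+PIK75, 19.4% and 20.4% with STA9090+BGT226, and 1.16% and 1.68% with STA9090. With STA9090 2 fell, among them the mTORC1 pathway gene FLCN (-0.43), and 0 rose by edgeR and by DESeq2, with 0 at an unadjusted p under 0.05. The FLCN call ended when only the compared groups were fitted (-0.43) and without untreated replicate 2 (-0.36), untreated replicate 3 (-0.43), STA9090 replicate 1 (-0.32) or STA9090 replicate 2 (-0.47). The leucine sensor SESN2 fell with BGT226 (-0.64), and its relative SESN3 was at 8.87 ± 1.58 CPM with STA9090+PIK75 and 20.7 ± 2.50 CPM in untreated cells (log2 fold change -1.21, adjusted p = 1.76e-06). SESN3 fell with STA9090+BGT226 too, to 10.3 ± 1.12 CPM (log2 fold change -1.02, adjusted p = 1.1e-05). LAMTOR2, a subunit of the lysosomal Ragulator scaffold, rose with PIK75 (0.61) and STA9090+PIK75 (0.70). LAPTM4B, which can bring the heavy chain and LAT1 to lysosomes, was at 146 ± 2.62 CPM with BGT226 and 86.5 ± 18.7 CPM in untreated cells (log2 fold change 0.75, adjusted p = 0.000106), the opposite direction to SLC7A5 and SLC3A2. DEPDC5, a subunit of the mTORC1 inhibitor GATOR1, rose with PIK75 (0.40), as did WDR59 of GATOR2 (0.40). With BGT226 WDR24 of GATOR2 (0.73) and ITFG2 of the KICSTOR complex (0.56) rose.

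Among 18 measured regulators of these transporters, 2 rose and 4 fell with PIK75, 5 rose and 5 fell with BGT226, 2 rose and 7 fell with STA9090+PIK75 and 4 rose and 5 fell with STA9090+BGT226. Of all tested genes, 8.49% rose and 10.2% fell with PIK75, and 12.8% and 15.7% with BGT226. These shares were 18.3% and 20.1% with STA9090+PIK75, 19.4% and 20.4% with STA9090+BGT226, and 1.16% and 1.68% with STA9090. With STA9090 0 were called by edgeR and by DESeq2, with 3 higher and 1 lower at an unadjusted p under 0.05. ATF4 RNA was at 112 ± 4.53 CPM with BGT226 and 79.8 ± 2.43 CPM in untreated cells (log2 fold change 0.49, adjusted p = 8.81e-06), while SLC3A2, SLC7A5, SLC7A1, SLC1A5 and SLC38A1 fell. With PIK75 it stood at 0.03 (adjusted p = 0.762) and with STA9090 at 0.04 (adjusted p = 0.783). ATF4 RNA was also higher with STA9090+PIK75 (0.33, adjusted p = 0.000363). There SLC3A2, SLC7A8 and SLC38A1 rose, and SLC7A1, SLC1A4 and SLC1A3 fell. With STA9090+BGT226 ATF4 RNA was higher as well (0.39, adjusted p = 6.2e-05). TRIB3, an ATF4 target, fell with BGT226 (-0.75). The stress gene DDIT3 went the other way. It rose with STA9090+BGT226, at 12.7 ± 0.955 CPM against 8.99 ± 1.04 CPM in untreated cells (log2 fold change 0.50, adjusted p = 0.00322). With BGT226 DDIT3 was at 12.1 ± 1.65 CPM, against 6.67 ± 0.922 CPM with PIK75 (log2 fold change 0.88, adjusted p = 3.29e-05). ATF5, a factor related to ATF4, fell with PIK75 (-0.61) and with STA9090+PIK75 (-1.21). EIF2AK1, a kinase upstream of ATF4 translation, fell with PIK75 (-0.45). MYC was at 115 ± 0.916 CPM with BGT226 and 79.6 ± 7.06 CPM in untreated cells (log2 fold change 0.53, adjusted p = 0.000293), and it rose with PIK75 too (0.44) but did not pass with STA9090+PIK75 (-0.17, adjusted p = 0.165). RNA levels do not show how much ATF4 or MYC protein was made.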

How the data were processed

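Ribosome-depleted total RNA of NCI-H295R cells was sequenced in 18 libraries, 3 in each of 6 groups that were assigned from the sample labels. The deposited table holds expected counts per gene. RSEM 1.3.1, STAR 2.7.0f, cutadapt 1.18, bcl2fastq 2.20 and the build hg38 are listed without settings in the submitters' processing notes. Per the labels' protocols the libraries were stranded and read from both ends. Expected counts were rounded to whole numbers. The 9 genes were matched by symbol. Of the table's IDs, 99.5% are in GENCODE 29 when versions are ignored, and that annotation gave positions and exon lengths.

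Counts were fitted in R 4.3.3 with edgeR 4.0.16, with TMM scaling, filterByExpr (count 10, total 15) and the quasi-likelihood F test. All 18 libraries entered 1 fit with a mean per group, and p-values were adjusted by the Benjamini-Hochberg method over the 15787 genes kept. The common dispersion corresponds to a biological coefficient of variation of 10.6%. Every adjusted p comes from this fit unless DESeq2 is named. SE is the log2 fold change divided by the root of F, and fold changes have a prior count of 0.125. Intervals and tests cover the spread between these libraries. The study's design text calls the replicates biological without saying how they were separated.

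The 13 comparisons set each treatment against untreated cells, each combination against its parts and BGT226 against PIK75, and 2 interactions. Alternatives were RLE scaling, no filter, a filter of 1 CPM in 3 libraries, DESeq2 1.42.0, the compared groups alone, a replicate block, omission of the 50 genes with the most counts, and omission of each library in turn. The fit was tested on simulated data. Genes of the other lists were named where they were among the 4 with the smallest adjusted p of their list in a comparison, beside ATF4, SLC7A11 and MYC, and 1 gene that this rule names is not reported here. The 9 genes, the lists and the tests were chosen with earlier results of these data known.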

Additional observations from a re-analysis of the deposited data

Results flagged for a closer look

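The effect of STA9090 differed between cells with and without PIK75, by the interaction term of the edgeR fit adjusted over all tested genes, for 1 of the 9 transporters, 2 of 24 other transporters, 1 of 32 sensing genes and 4 of 18 regulators. Over all tested genes 3.54% were called higher and 5.73% lower. SLC3A2, the heavy chain, had an interaction of 0.44, SE 0.129, adjusted p = 0.0352, with STA9090 at 0.29 in the presence of PIK75 and -0.16 in its absence. Of the SLC7 genes, SLC7A2, a cationic carrier, stood at -0.76 (SE 0.181, adjusted p = 0.0121) and SLC7A6, a light chain of 4F2hc, at -0.57 (SE 0.149, adjusted p = 0.0196). Among nutrient sensing and stress genes the interaction was -1.16 (SE 0.197, adjusted p = 0.000973) for SESN3, -0.67 (SE 0.170, adjusted p = 0.0175) for ATF5 and 0.70 (SE 0.188, adjusted p = 0.0225) for DDIT3. It was -0.53 (SE 0.134, adjusted p = 0.0166) for MYC. CD44, a surface glycoprotein, had -1.17 (SE 0.358, adjusted p = 0.0442). The log2 fold change with STA9090 was thus higher with PIK75 than without it for SLC3A2 and DDIT3, and lower for the other 6. The calls of SLC7A2 and SESN3 held in every alternative run. That of SLC3A2 ended with only the compared groups fitted (adjusted p = 0.0856). It also ended without untreated replicate 2 (0.37), STA9090 replicate 1 (0.36), PIK75 replicate 1 (0.42) or PIK75 replicate 2 (0.41). Leaving out STA9090+PIK75 replicate 1 (0.44) or STA9090+PIK75 replicate 2 (0.39) ended it too. The call of CD44 ended with the replicate block (adjusted p = 0.0572), with only the compared groups fitted (0.0888) and without untreated replicate 3 (-0.97), STA9090 replicate 1 (-1.19), STA9090 replicate 2 (-1.20), STA9090 replicate 3 (-1.11), PIK75 replicate 1 (-1.14), PIK75 replicate 2 (-1.08), STA9090+PIK75 replicate 1 (-1.20) or STA9090+PIK75 replicate 2 (-0.90). That of DDIT3 ended without untreated replicate 2 (0.65), untreated replicate 3 (0.63) or PIK75 replicate 2 (0.63), and that of SLC7A6 without untreated replicate 1 (-0.51) or STA9090+PIK75 replicate 1 (-0.52). Those of MYC and ATF5 ended with only the compared groups fitted (-0.52 and -0.65), and that of ATF5 also without STA9090+PIK75 replicate 2 (-0.57).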

How the results depend on the processing

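Of 1629 log2 fold changes of the 9 genes recomputed under the alternatives, 1555 kept their direction and side of the threshold or stayed uncalled, and no called value reversed. All 117 values kept their side of the threshold under RLE scaling and under the filter of 1 CPM in 3 libraries. Over the 9 genes and the other named genes together, 37 uncalled values changed sign. The count of genes raised by BGT226 was 0 without a filter and with the replicate block, and that of STA9090+BGT226 was 0 without a filter, where SLC38A2 was lost. With DESeq2 STA9090 raised 2 genes, and with the compared groups alone it raised 0, as did the interaction with PIK75. With single libraries left out, the counts of rises ranged from 0 to 1 for STA9090, were 0 throughout for BGT226, and ranged from 0 to 1 for STA9090+BGT226, for STA9090+PIK75 against PIK75 and for the interaction with PIK75. Falls ranged from 0 to 1 for that interaction and for STA9090+BGT226 against BGT226. The causes were not tested. No pairing of the samples by replicate number was detected: in 0 of 15 pairs of groups were all 3 correlations over 0.1 (-0.17 to 0.15). With 3 libraries per group, a weak pairing could be missed. The replicate block left 115 of 117 values on their side of the threshold. It ended the calls of SLC38A2 with BGT226 and of SLC7A1 with STA9090+PIK75, and, outside the 9 genes, that of the CD44 interaction with PIK75. Of 1902 values of other named genes, 1852 kept their call, 49 lost it, 1 gained it and 0 reversed. The lowest counts, 92 for SLC1A3 and 123.5 for SLC7A5, limit the precision of those genes.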
